A study of Mus musculus with 84 samples.

Results

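Hindbrain astrocytes that carry the glutamate transporter GLAST on their surface were compared in 11 libraries, 6 from mice at the peak of experimental autoimmune encephalomyelitis (EAE) and 5 from control mice. They were chosen by title, as the score 4 and control libraries of the hindbrain ACSA-2+ GLAST+ sort, and are 11 of the 66 libraries of the EAE experiment and of the 84 samples in the series. The study isolated astrocytes from several regions of the mouse central nervous system and sequenced the 3′ ends of their mRNA, to ask how astrocyte subtypes differ at rest and during neuroinflammation.

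The animals were C57BL/6J mice. Those of the EAE groups were females that received MOG35-55 peptide in complete Freund's adjuvant, with pertussis toxin, at 10 weeks of age, and score 4 denotes complete paralysis of the hind legs. The controls were not immunized, so the disease, the adjuvant and the toxin cannot be told apart in this comparison. Hindbrain here means cerebellum with brain stem. Live cells that lacked CD11B and CD45, which removes most microglia and leukocytes, were sorted as ACSA-2+ GLAST+. A library could combine the cells of 2 mice, and p-values below measure the spread between such libraries. In bulk RNA from a sort, fewer cells of a kind and less RNA per cell cannot be told apart.

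EAE is driven by T cells that recognize a myelin antigen, enter the central nervous system and release cytokines, among them interferon-γ. Interferons act through transcription factors such as IRF1 to switch on guanylate-binding proteins, immunity-related GTPases and the MHC class I machinery, and interferon-γ also induces MHC class II through CIITA. Astrocytes take up glutamate and GABA, buffer potassium and respond to injury with reactive programs marked by Gfap. In the cerebellum, the cells with the most GLAST are Bergmann glia, the radial astrocytes that accompany Purkinje cells.

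The label of the sort was checked against its defining markers. Slc1a3, which encodes GLAST, was at 6470, 8380, 6410, 9090 and 5490 counts per 1e6 counts (CPM) in the 5 controls, against 1140 to 1770 CPM in the control libraries of the hindbrain ACSA-2+ GLAST- sort. Gdf10, a secreted factor typical of Bergmann glia, was at 1830, 2230, 1370, 1880 and 1210 CPM, against 35.4 to 107 CPM in that GLAST- sort. At score 4 Slc1a3 ranged from 4270 to 11600 CPM (median 8400) and Gdf10 from 1060 to 3260 CPM (median 2480), and neither was called (log2 change 0.12 ± 0.26 and 0.41 ± 0.42, SE). Atp1b2, which encodes the ACSA-2 epitope, was at 6010 to 6740 CPM in controls and 5220 to 7210 CPM at score 4.

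The controls held 2423406 to 3957998 counts (median 2909625) and the score 4 libraries 2582043 to 4123798, with no difference in totals detected by an exact two-sided permutation test (p = 0.511). A count of 3, used as the floor of detection, was worth 0.699 to 1.23 CPM. Score 4 library 1 stood apart: its median Spearman correlation with the other libraries of its group was 0.803 over 10255 genes, that of library 3 was 0.847, and those of the other 4 were 0.889 to 0.896. Library 1 also held 1410 CPM over 14 T cell marker genes, against 62.3 to 394 CPM in the other score 4 libraries and 0 to 9.79 CPM in the controls. The count of called genes in a list below was the same without score 4 libraries 1 and 3 unless another count is given.

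Of 23324 genes tested, 388 (1.66%) rose and 86 (0.369%) fell at score 4, at an adjusted p under 0.05 and a log2 change above 1 or below -1 (edgeR quasi-likelihood test, Benjamini-Hochberg adjustment). The groups did not overlap for 172 of the 388 and for 20 of the 86. Over all genes, the groups did not overlap for 1.09% in the higher and 0.493% in the lower direction. Of the genes that rose, 181 (46.6%) were at 3 or fewer counts in each control library, and 204 had their highest level in score 4 library 1. Without libraries 1 and 3, 228 genes were called higher, 218 of them among the 388, and 59 lower, 31 of them among the 86. Without library 1 alone 242 were called higher, and the number called lower was 54 without control 3 or control 5 and 56 without score 4 library 6.

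**Figure D1:**
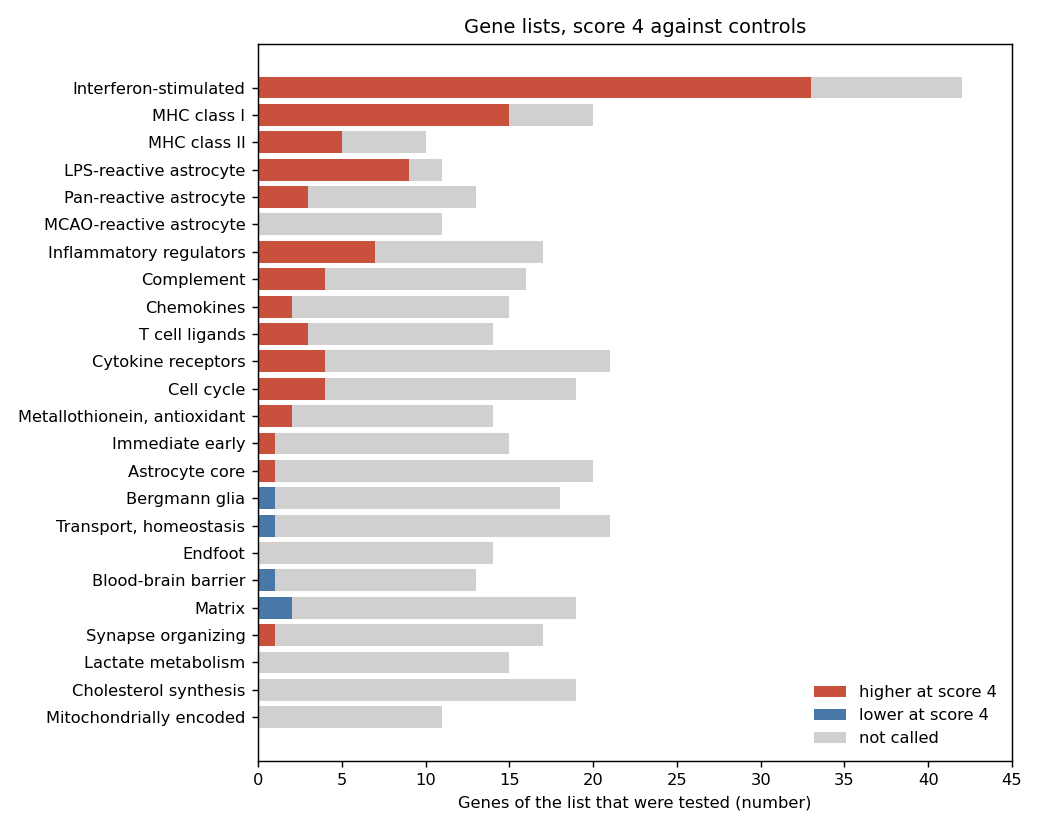
Number of tested genes of each list that were called higher (red), called lower (blue) or not called (grey) at score 4 against controls in hindbrain GLAST-positive libraries; bars start at 0. Interferon-stimulated (33 of 42), MHC class I (15 of 20) and LPS-reactive genes (9 of 11) were mostly called higher, while transport, endfoot and metabolic lists were nearly all not called.

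Interferon-stimulated genes were the list with the most called members. Of 42 tested, 33 rose and 0 fell (41 and 0 at an unadjusted p under 0.05), with a median log2 change of 4.09 beside 0.00 over all genes tested, and 3.51 when genes at the floor in all controls were set to their lower bound. Without score 4 libraries 1 and 3, 31 of 42 were called higher. Summed over the list, the controls held 432, 311, 391, 291 and 778 CPM and the score 4 libraries 2450, 3490, 10100, 11500, 4430 and 6340 CPM in order of replicate. The lowest of the score 4 sums was in library 1, which held the most T cell RNA, and the highest were in libraries 3 and 4. The part of T cells in these sums was not tested.

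Igtp, an immunity-related GTPase, was at 5.72, 4.93, 19.3, 6.85 and 22.3 CPM in controls and at 254 to 2520 CPM (median 884) at score 4. This was a 107-fold rise (log2 change 6.71 ± 0.70, adjusted p = 2.2e-10). Every score 4 library lay above every control. Igtp overlaps Irgm2 on the same strand, so reads at the shared exons may have been assigned to neither. Ifi47, of the same GTPase family, went from 0, 0, 1.96, 1.02 and 0 CPM to 14 to 296 CPM (median 77.4), and Iigp1 from 2.04, 4.17, 0.326, 1.02 and 4.91 CPM to 69.7 to 780 CPM (median 203). Their log2 changes were 7.62 ± 0.87 and 7.03 ± 0.81, both with an adjusted p of 2.6e-09 and no overlap between the groups.

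The guanylate-binding proteins, GTPases that act on membranes of pathogens, rose as well. Gbp2 was at 0.409, 0, 13.4, 2.03 and 3.68 CPM in controls and at 30.1 to 703 CPM (median 210) at score 4 (log2 change 6.10 ± 0.84, adjusted p = 3.8e-07). Gbp7 was at 5.72, 9.1, 6.85, 4.57 and 8.1 CPM and then at 43.6 to 408 CPM (median 109; log2 change 4.67 ± 0.53, adjusted p = 1.8e-09). For both genes score 4 library 1 was the lowest of its group but still above each control. Gbp genes are close paralogs, and reads that align to several of them may have been lost.

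Irf1, a transcription factor induced by interferon-γ, was at 17.2, 9.1, 17.9, 6.6 and 16.4 CPM in controls and at 134 to 452 CPM (median 243) at score 4, a 20.2-fold rise (log2 change 4.34 ± 0.51, adjusted p = 3.2e-09). The groups did not overlap. Of the 9 list members that were not called, Ifit2 had a log2 change of 1.41, Mx2 of 1.91, Usp18 of 1.86 and Trim21 of 2.21.

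To show the DNA at which these genes start, the promoters of 9 genes that rose are printed below from RefSeq (GRCm38.p6), each running 5′ to 3′ on the strand of the gene from 250 bases before to 50 bases after the start. They cover interferon targets (Igtp, chr11:58199306-58199605, plus strand; Gbp7, chr3:142530086-142530385, plus; Gbp2, chr3:142620413-142620712, plus; Irf1, chr11:53769764-53770063, plus), MHC class I (B2m, chr2:122147437-122147736, plus; H2-D1, chr17:35262844-35263143, plus), MHC class II (H2-Aa, chr17:34287774-34288073, minus; H2-Eb1, chr17:34305617-34305916, plus) and Gfap (chr11:102897151-102897450, minus). Capitals mark matches on either strand to GAAA followed after any 2 bases by GAAA (the core of the interferon-stimulated response element, ISRE), TTCNNNGAA (the gamma-activated site, GAS, bound by STAT factors), GGGA followed after any 2 bases by TTCC (a kappa-B site) or CTGATTGG (the Y box of MHC promoters). No 2 of the marked matches overlap. Only promoters with at least 1 match were printed, so the presence of a match in each is no result. For Irf1, which has 2 starts, the first start with a match was taken.
Igtp: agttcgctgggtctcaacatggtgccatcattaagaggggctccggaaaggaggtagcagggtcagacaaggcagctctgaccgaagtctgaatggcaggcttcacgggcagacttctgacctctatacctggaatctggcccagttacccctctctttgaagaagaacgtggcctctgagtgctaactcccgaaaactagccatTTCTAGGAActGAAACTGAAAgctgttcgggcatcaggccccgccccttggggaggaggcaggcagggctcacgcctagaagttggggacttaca
Gbp7: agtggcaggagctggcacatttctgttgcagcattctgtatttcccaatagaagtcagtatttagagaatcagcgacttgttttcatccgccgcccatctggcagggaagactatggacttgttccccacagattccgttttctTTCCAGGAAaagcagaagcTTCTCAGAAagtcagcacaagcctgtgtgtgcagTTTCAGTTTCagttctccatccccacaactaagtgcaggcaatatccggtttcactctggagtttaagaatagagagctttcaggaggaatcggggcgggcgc
Gbp2: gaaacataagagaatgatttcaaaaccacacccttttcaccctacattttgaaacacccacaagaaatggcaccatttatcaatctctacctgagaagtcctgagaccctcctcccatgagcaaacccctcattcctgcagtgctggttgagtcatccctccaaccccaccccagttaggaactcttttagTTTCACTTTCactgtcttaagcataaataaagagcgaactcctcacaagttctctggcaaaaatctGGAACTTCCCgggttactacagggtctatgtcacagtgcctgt
Irf1: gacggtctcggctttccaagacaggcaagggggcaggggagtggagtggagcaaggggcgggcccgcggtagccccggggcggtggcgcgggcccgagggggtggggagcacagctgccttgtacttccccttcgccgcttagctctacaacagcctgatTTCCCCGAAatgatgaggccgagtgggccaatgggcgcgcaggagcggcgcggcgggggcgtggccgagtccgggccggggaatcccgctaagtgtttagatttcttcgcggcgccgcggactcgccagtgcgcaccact
B2m: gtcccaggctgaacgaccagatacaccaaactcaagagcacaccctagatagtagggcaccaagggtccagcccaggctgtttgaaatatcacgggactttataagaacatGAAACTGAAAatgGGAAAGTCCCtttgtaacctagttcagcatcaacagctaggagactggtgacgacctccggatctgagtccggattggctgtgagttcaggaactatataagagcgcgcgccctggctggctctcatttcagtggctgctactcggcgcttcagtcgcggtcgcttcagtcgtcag
H2-D1: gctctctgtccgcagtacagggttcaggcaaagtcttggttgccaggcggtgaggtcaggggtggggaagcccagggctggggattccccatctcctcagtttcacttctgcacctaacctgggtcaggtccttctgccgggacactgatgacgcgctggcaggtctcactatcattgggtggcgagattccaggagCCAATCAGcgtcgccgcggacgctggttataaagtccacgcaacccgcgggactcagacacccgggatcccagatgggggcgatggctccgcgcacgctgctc
H2-Aa: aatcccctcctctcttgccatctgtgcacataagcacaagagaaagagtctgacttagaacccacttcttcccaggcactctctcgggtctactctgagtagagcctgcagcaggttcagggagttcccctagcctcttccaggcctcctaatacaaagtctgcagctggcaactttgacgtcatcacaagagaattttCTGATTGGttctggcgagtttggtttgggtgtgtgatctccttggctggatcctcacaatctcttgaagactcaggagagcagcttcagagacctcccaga
H2-Eb1: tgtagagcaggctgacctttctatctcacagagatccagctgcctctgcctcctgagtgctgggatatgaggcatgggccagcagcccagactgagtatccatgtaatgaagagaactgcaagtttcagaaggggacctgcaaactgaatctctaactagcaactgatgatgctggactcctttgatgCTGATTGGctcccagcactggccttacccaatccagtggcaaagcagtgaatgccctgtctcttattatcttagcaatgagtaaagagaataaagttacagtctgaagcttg
Gfap: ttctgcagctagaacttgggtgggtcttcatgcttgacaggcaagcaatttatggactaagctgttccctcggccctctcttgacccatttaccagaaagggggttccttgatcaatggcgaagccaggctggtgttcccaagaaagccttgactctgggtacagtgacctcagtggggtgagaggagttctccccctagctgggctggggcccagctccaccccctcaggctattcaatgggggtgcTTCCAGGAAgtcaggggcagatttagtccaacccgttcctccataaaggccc

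In these promoters the ISRE core lay at -34 to -25 in Igtp, -53 to -44 in Gbp7, -59 to -50 in Gbp2 and -139 to -130 in B2m, counted from the start. Igtp also held a GAS match at -45 to -37, Gbp7 at -106 to -98 and at -87 to -79, Irf1 at -90 to -82 and Gfap at -2 to 7. Kappa-B matches lay at 8 to 17 in Gbp2 and at -126 to -117 in B2m. The Y box lay at -53 to -46 in H2-D1, -51 to -44 in H2-Aa and -62 to -55 in H2-Eb1. Among 32851 mouse promoters of this length, 3.44% held the ISRE core, 8.3% the GAS letters, 1.47% the kappa-B letters and 4.1% the Y box.

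Counted per gene, 15 of the 25 interferon-stimulated genes that rose and had a promoter in the table (60%) held an ISRE core, and 8 (32%) a GAS match. Over the 13953 tested genes with a promoter, these shares were 3.87% and 8.56%. Among all genes that rose, 47 of 273 (17.2%) held the ISRE core, and among those that fell, 1 of 52 (1.92%). The Y box was present in 6 of 13 MHC class I genes that rose (46.2%), beside 6.06% of tested genes. These are counts of letters in fixed windows, and binding of a factor was not measured.

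Genes of MHC class I presentation rose together. Of 20 genes tested, 15 rose and 0 fell (20 and 0 at an unadjusted p under 0.05), with a median log2 change of 2.73 (2.43 with floor genes at their bound), and 13 were called higher without score 4 libraries 1 and 3. H2-K1, a class I heavy chain, was at 265, 269, 297, 292 and 264 CPM in controls and at 958 to 2020 CPM (median 1450) at score 4, a 5.20-fold rise (log2 change 2.38 ± 0.33, adjusted p = 5e-07). H2-D1 rose 7.20-fold, from 62.5, 88.7, 59.4, 77.7 and 72.6 CPM to 371 to 751 CPM (median 501), and B2m, the light chain, 6.10-fold, from 83.8, 100, 71.5, 130 and 117 CPM to 518 to 806 CPM (median 568). No control reached the lowest score 4 library for any of these chains. T cells also express class I genes: library 1, with the most T cell RNA, had the highest H2-K1 and H2-D1 but the lowest B2m (518 CPM) of the score 4 libraries, and the part of T cells in these levels was not tested. H2 genes are paralogs that can share reads, and Patl2 overlaps B2m on the opposite strand.

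Genes that supply peptide to class I varied in their change, from a log2 change of 1.54 for Psme2 to 7.35 for Psmb9 among those that rose, and Tap2 (2.05) and Psme1 (0.92) were not called. Tap1, a subunit of the peptide transporter, went from 6.13, 2.65, 2.94, 9.14 and 8.34 CPM to 99.3 to 316 CPM (median 182), a 33.7-fold rise (log2 change 5.03 ± 0.53, adjusted p = 2.2e-10). Psmb8, an immunoproteasome subunit, went from 0.817, 2.27, 1.63, 2.03 and 2.21 CPM to 53.4 to 264 CPM (median 93.8), a 71.5-fold rise (log2 change 6.09 ± 0.73, adjusted p = 8.3e-09). Psmb9, another immunoproteasome subunit, was at or under 3 counts in every control and at 18.9 to 130 CPM at score 4, at least 57.8-fold higher. Nlrc5, the transactivator of class I genes, was likewise at the floor in controls and at 14.6 to 72.5 CPM at score 4, at least 34.5-fold higher. Tap1, Psmb8, Psmb9 and Nlrc5 separated the groups completely. Psmb9 and Tap1 overlap on opposite strands, and whether counting used strand was not given in the sources used here, so their reads cannot be fully told apart.

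MHC class II genes were at or near 0 CPM in controls and present at low levels at score 4. Of 10 tested, 5 rose (H2-Aa, H2-Ab1, H2-Eb1, H2-DMa and Cd74), 0 fell, and 5 were called without score 4 libraries 1 and 3. Each had 3 or fewer counts in every control. H2-Aa, the alpha chain of I-A, was at 22.6, 27.4, 7.36, 28.3, 16.2 and 0.308 CPM in score 4 libraries 1 to 6, at least 17.6-fold higher than the controls (adjusted p = 0.0002). H2-Eb1 was at 25.4, 10.9, 1.84, 17.4, 7.51 and 8.02 CPM, at least 12.2-fold higher, and Cd74, the invariant chain, at 16.6, 4.23, 0, 3.93, 6.38 and 2.78 CPM, at least 5.83-fold higher, a call lost without control 4, control 5 or score 4 library 1. The level differed widely within the group, and H2-Aa in library 6 was not above the controls. H2-Ab1 was at least 10.8-fold and H2-DMa at least 5.89-fold higher.

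Class II genes are abundant in microglia, dendritic cells and macrophages, and traces of such cells moved in the same direction. Summed over 10 class II genes, the controls held 0 to 1.96 CPM and the score 4 libraries 107, 61.4, 11.8, 89.7, 41.7 and 18.5 CPM. Infiltrating myeloid markers summed to 2.65 to 10.9 CPM in controls and to 113, 107, 25.7, 96.5, 40.2 and 55.5 CPM at score 4. The part of those cells in the class II signal was not tested. Ciita, the class II transactivator, had a log2 change of 2.90 and was not called.

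**Figure D2:**
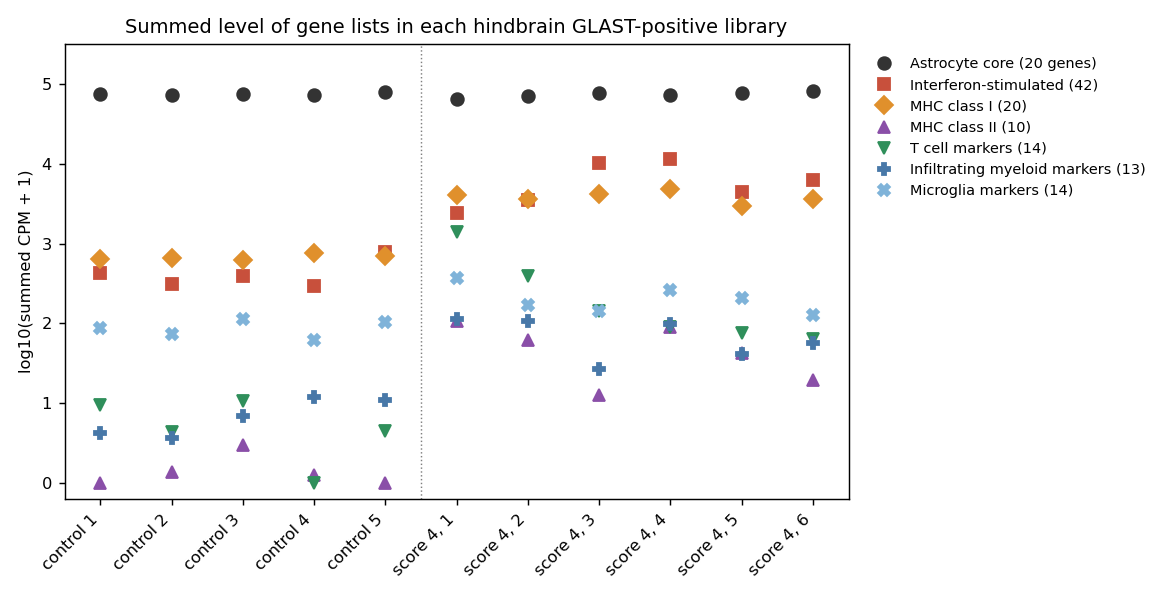
Summed level of 7 gene lists in each library on a log10(summed CPM + 1) scale, 5 controls on the left and 6 score 4 libraries on the right. Interferon and MHC sums were higher in each score 4 library than in any control, astrocyte core genes were at 64700 to 82200 CPM at score 4 beside 72000 to 79600 CPM in controls, and T cell markers reached 1410 CPM in score 4 library 1.

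Reactive astrocyte genes were counted in 3 lists, and differences between the lists were not tested. Of 11 genes of the list linked to lipopolysaccharide (LPS), 9 rose and 0 fell, with a median log2 change of 4.57 (3.16 with floor genes at their bound), and 9 were called without score 4 libraries 1 and 3. Of its members, 5 also belong to the interferon or MHC lists above (Gbp2, Iigp1, H2-D1, H2-T23 and Psmb8). Serping1, the C1 inhibitor, went from 5.72, 0, 5.22, 0.762 and 0 CPM to 17.3 to 67.9 CPM (median 33.6), a 16.1-fold rise (log2 change 4.06 ± 0.75, adjusted p = 0.00025). Of 11 genes linked to middle cerebral artery occlusion (MCAO), 0 were called by edgeR or by DESeq2 (4 higher and 1 lower at an unadjusted p under 0.05). Their median log2 change was 2.53, or 0.00 with the 4 genes at the floor in all controls set to their bound, and the best expressed of them, S100a10, was at 80 to 138 CPM in controls and 78.3 to 142 CPM at score 4.

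Of 13 pan-reactive genes, 3 rose and 0 fell (9 and 0 at an unadjusted p under 0.05), and DESeq2 called 5 higher. Their median log2 change was 2.8, or 1.65 with floor genes at their bound. Gfap, the intermediate filament of reactive astrocytes (GRCm38 chromosome 11, 102887336 to 102900912, minus strand), was at 6.54, 36.4, 28.4, 13.7 and 16.4 CPM in controls and at 152 to 344 CPM (median 207) at score 4. That was a 10.7-fold rise (log2 change 3.43 ± 0.38, adjusted p = 1.2e-09) with no overlap between the groups. Serpina3n, a secreted protease inhibitor, also rose 10.7-fold, from 10.2, 6.82, 12.7, 4.82 and 0 CPM to 29.6 to 136 CPM (median 71.9; log2 change 3.45 ± 0.53, adjusted p = 4.8e-06). Cxcl10, a chemokine that attracts T cells through CXCR3, went from 2.45, 7.58, 2.61, 0.508 and 0.982 CPM to 8.46 to 73.5 CPM (median 18.7; adjusted p = 0.024), a call lost on leaving out any one of 4 controls (all but control 2) or score 4 library 4 or 6.

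The other pan-reactive genes were not called by edgeR. Vim, the other filament of reactive astrocytes, was at 382 to 535 CPM in controls and 299 to 529 CPM at score 4 (log2 change -0.10 ± 0.41). Timp1, an inhibitor of metalloproteinases, was at 0, 3.79, 0, 4.57 and 0.982 CPM and then at 5.52 to 20.4 CPM, without overlap but with an adjusted p of 0.14. Lcn2, an iron-binding acute-phase protein, was at 0 CPM in the 5 controls and in 3 of 6 score 4 libraries, and at 0.995, 4.51 and 2.78 CPM in the others (adjusted p = 0.11 by edgeR's quasi-likelihood test, and called by DESeq2).

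**Figure D3:**
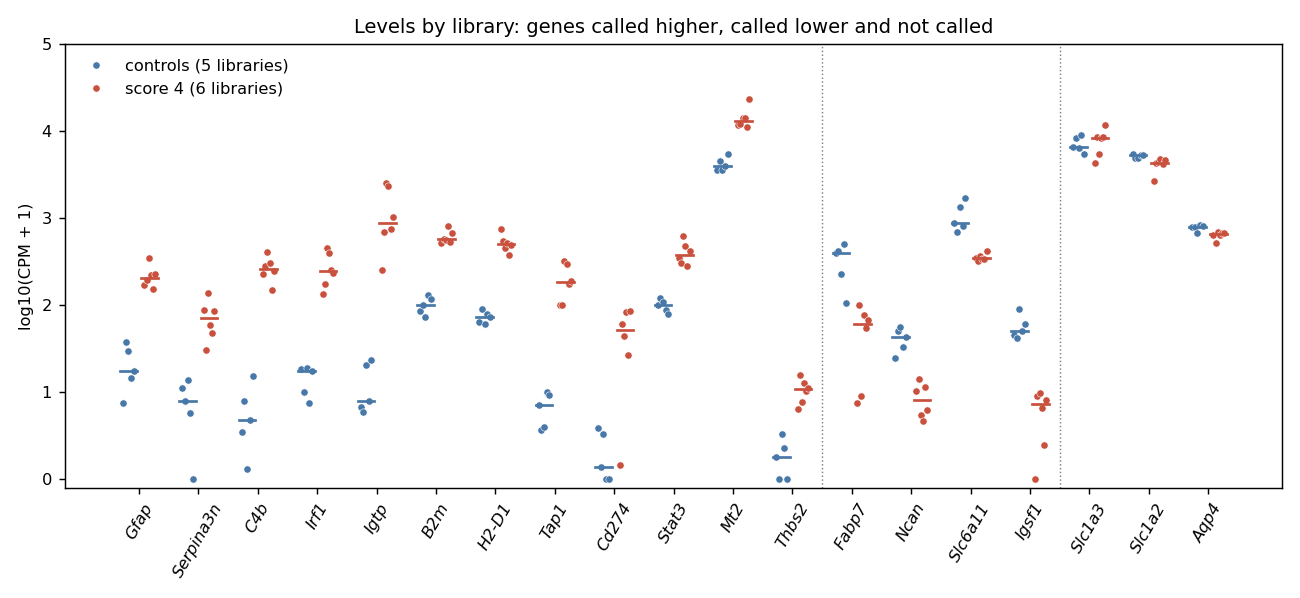
Level of 19 genes in each library on a log10(CPM + 1) scale, with blue points for 5 controls, red points for 6 score 4 libraries and short lines for group medians; dotted lines separate genes called higher, called lower and not called. For each gene called higher except Cd274, and for each gene called lower, no library of one group reached the other, while Slc1a3 and Aqp4 overlapped.

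Of 16 complement genes tested, 4 rose and 0 fell (10 and 0 at an unadjusted p under 0.05), and 3 were called without score 4 libraries 1 and 3. C4b, a component of the classical pathway (GRCm38 chromosome 17, 34728380 to 34743882, minus strand), went from 2.45, 6.82, 0.326, 3.81 and 14.5 CPM to 148 to 405 CPM (median 262), a 48-fold rise (log2 change 5.53 ± 0.46). With an adjusted p of 2.5e-14 it separated the groups by a wide gap. C4a, its near-identical copy, was at 0 CPM in the controls and at 0.699 to 6.38 CPM at score 4 (at least 4.01-fold higher), and reads may have been split between them. C3 was at 0 CPM in the controls and at 7.23, 7.46, 0, 4.21, 0 and 0 CPM at score 4 (adjusted p = 0.027), a call lost on leaving out any single control or score 4 library 1 or 2. The 3 remaining calls, C4b, C4a and Serping1, did not depend on any single library.

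Chemokines and ligands for T cells were mostly not called by edgeR. At an unadjusted p under 0.05, 9 of the 15 chemokines tested were higher and 0 lower, and DESeq2 called 5 higher. Their median log2 change was 3.73, or 1.07 with the 10 genes at the floor in all controls set to their bound. Of 15 chemokines, 2 rose: Cxcl10 and Ccl5, which was at 0 CPM in controls and at 33.6, 16.4, 11.8, 8.97, 7.14 and 3.39 CPM at score 4 (at least 14-fold higher). T cells themselves make Ccl5, and its level was highest in libraries 1 and 2, as was the T cell sum. The part of T cells in it was not tested. Of 14 ligands, 3 rose and 0 fell (6 and 1 at an unadjusted p under 0.05). Cd274, which encodes the checkpoint ligand PD-L1, was at 2.86, 0.379, 2.28, 0 and 0 CPM in controls and at 0.466, 60.4, 42.7, 83.3, 25.9 and 85.4 CPM at score 4 (log2 change 5.58 ± 0.87, adjusted p = 6.5e-06). Library 1, with the most T cell RNA, was within the control range and the other 5 were at least at 25.9 CPM. The part of T cells in the Cd274 level was not tested. Lgals9, which encodes galectin-9, rose 24.1-fold and Icam1, an adhesion molecule, at least 6.09-fold.

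Of 21 cytokine receptors, 4 rose (3 without score 4 libraries 1 and 3), with log2 changes between 1.35 for Il17ra and 9.72 for Il18r1. Tnfrsf1a, the main TNF receptor, went from 36, 23.5, 39.5, 49 and 33.6 CPM to 87.5 to 230 CPM (median 113), a 3.66-fold rise (log2 change 1.87 ± 0.29, adjusted p = 4.4e-06). Il17ra, a receptor for IL-17A, went from 119, 57.6, 89.4, 112 and 160 CPM to 197 to 348 CPM (median 286), a 2.55-fold rise (log2 change 1.35 ± 0.29, adjusted p = 0.0022). Neither gene overlapped between the groups. Il18r1 was at 0 CPM in controls and at 122, 70.6, 6.99, 1.12, 10.9 and 2.16 CPM at score 4, again highest in the libraries with the most T cell RNA. The interferon receptors were not called, with log2 changes of 0.85 for Ifngr1, -0.64 for Ifngr2, 0.14 for Ifnar1 and 0.18 for Ifnar2.

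Of 17 regulators of inflammation, 7 rose and 0 fell, 5 of them also without score 4 libraries 1 and 3. Stat3, which drives reactive gliosis, went from 98.9, 121, 107, 86.6 and 77.3 CPM to 284 to 623 CPM (median 380), a 4.16-fold rise (log2 change 2.06 ± 0.23, adjusted p = 1.8e-09). Stat5a overlaps it on the opposite strand. Cebpd, a factor of the acute-phase response, rose 5.06-fold, from 12.1 to 31.2 CPM in controls to 51.1 to 155 CPM. Junb, an immediate early factor, rose 6.82-fold, from 1.27 to 14.7 CPM to 46.2 to 73.9 CPM, and was the only one of 15 immediate early and stress genes to be called.

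Metallothioneins, which bind zinc and copper and protect against oxidation, were already abundant and rose further. Mt2 went from 3610, 4550, 3560, 3960 and 5440 CPM to 11200 to 23500 CPM (median 13000), a 3.41-fold rise (log2 change 1.77 ± 0.38, adjusted p = 0.0027). Mt1 went from 2560, 2540, 3510, 3290 and 3260 CPM to 6250 to 13200 CPM (median 7550), a 2.77-fold rise (log2 change 1.47 ± 0.38, adjusted p = 0.02) that was not called without control 1, control 2 or score 4 library 6. These were 2 of 14 metallothionein and antioxidant genes tested, with 0 lower. Thbs2, a secreted thrombospondin that promotes synapse formation, was the only one of 17 synapse-organizing genes called: 0.817, 0, 2.28, 1.27 and 0 CPM became 5.36 to 14.9 CPM (median 9.78; log2 change 3.42 ± 0.52, adjusted p = 4.7e-06). It was not called in a fit of the 11 libraries alone.

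Genes of astrocyte identity and support were largely not called. Of 20 core astrocyte genes, Gfap alone rose and 0 fell (median log2 change -0.08). The sum of the list was 72000 to 79600 CPM in controls and 64700 to 82200 CPM at score 4. Slc1a2, which encodes the glutamate transporter GLT-1, was at 5390, 4960, 4940, 5260 and 5270 CPM in controls and at 2630 to 4800 CPM (median 4340) at score 4, without overlap but with a log2 change of -0.31 ± 0.26 (adjusted p = 0.63). Aqp4, the water channel of endfeet, was at 667 to 834 CPM and then 515 to 694 CPM (log2 change -0.28 ± 0.31), Gja1, which encodes connexin 43, at 657 to 1270 and 437 to 1310 CPM, and Aldh1l1, a folate enzyme, at 87.9 to 181 and 96.5 to 217 CPM. Glul, glutamine synthetase, was at 1720 to 2170 CPM and then at 2420 to 4210 CPM, without overlap and with an adjusted p of 0.19.

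No gene was called among 14 endfoot, 15 lactate and glycogen, 19 cholesterol synthesis or 11 mitochondrially encoded genes, by edgeR or by DESeq2. Their median log2 changes were 0.00, 0.00, -0.31 and -0.21, and at an unadjusted p under 0.05 the endfoot list held 0 genes, the lactate list 1 higher, the cholesterol list 3 lower and the mitochondrial list 1 higher and 2 lower. Of the cholesterol enzymes, Msmo1 was at 347 to 560 CPM in controls and 220 to 365 CPM at score 4 (log2 change -0.58 ± 0.20, adjusted p = 0.1) and Hmgcs1 at 297 to 472 and 235 to 376 CPM. Apoe, which carries cholesterol to neurons, was at 2370 to 3120 and 2150 to 2560 CPM. Of 13 genes linked to the blood-brain barrier, Ptgs1, a cyclooxygenase, fell, from 0, 12.1, 0.653, 5.33 and 19.1 CPM to 0 to 2.24 CPM, with overlap and a call that was lost without any of 5 single libraries or without score 4 libraries 1 and 3.

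The genes that fell came from several lists. Fabp7, a fatty acid carrier of radial glia (GRCm38 chromosome 10, 57784881 to 57788450, plus strand), went from 400, 417, 224, 508 and 104 CPM to 6.53 to 98.7 CPM (median 59.8), 6.44-fold lower (log2 change -2.68 ± 0.51, adjusted p = 0.00035). It was the only one of 18 Bergmann glia genes called, and 2 were called lower in a fit of the 11 libraries alone. At an unadjusted p under 0.05, 1 of the 18 was higher and 5 were lower. For 4 of the 18 every score 4 library lay below every control, beside 0.493% of all genes. The list summed to 17800 to 21400 CPM in controls and 15500 to 20800 CPM at score 4. Ncan, which encodes the matrix proteoglycan neurocan, went from 23.7, 48.9, 54.8, 32 and 41.5 CPM to 3.65 to 13.2 CPM (median 7.28), 5.21-fold lower (log2 change -2.36 ± 0.37, adjusted p = 7.9e-06). The groups did not overlap for either gene.

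Slc6a11, the GABA transporter GAT-3 of astrocytes, was the only one of 21 transport genes called: 879, 696, 1340, 820 and 1680 CPM became 318 to 414 CPM (median 343), 3.05-fold lower (log2 change -1.61 ± 0.36, adjusted p = 0.0035). Igsf1, an immunoglobulin superfamily membrane protein, went from 44.6, 40.6, 88.1, 49.3 and 59.9 CPM to 0 to 8.83 CPM (median 6.35), 10.9-fold lower (log2 change -3.45 ± 0.52, adjusted p = 4e-06). Hes5, a Notch target, fell 3.72-fold and Sfrp5, a secreted Wnt antagonist, 4.11-fold. Sall3, a zinc finger transcription factor, went from 6.54, 8.34, 4.9, 7.87 and 16 CPM to at most 1.1 CPM, at least 9.61-fold lower. None of these 5 genes overlapped between the groups.

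Most of these genes were more abundant in the other hindbrain sort. In controls of the ACSA-2+ GLAST- sort, Slc6a11 was at 8540 to 12400 CPM, Sfrp5 at 584 to 1090, Igsf1 at 326 to 657, Hes5 at 356 to 545, Ncan at 239 to 358 and Sall3 at 54.8 to 84.3 CPM, each above every control of the GLAST+ sort. Fabp7 was the other way round, at 56.4 to 145 CPM in the GLAST- controls. Whether the share of such cells in the GLAST+ gate differed between controls and score 4 was not tested. Foxb1, a transcription factor chosen after its values were seen, fell 7.80-fold with overlap, a call lost without control 5, and was at 120 to 191 CPM in the GLAST- controls against 4.57 to 32.6 CPM in the GLAST+ controls.

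The remaining leading genes among those that fell were 3000002C10Rik, Cdk5r2, E330009J07Rik, Jph4, Rap1gap and Shc4, with log2 changes between -1.97 ± 0.40 for E330009J07Rik and -2.36 ± 0.60 for Rap1gap, apart from 3000002C10Rik, which was at or under 3 counts in each score 4 library and at least 6.12-fold lower. Jph4, a junctophilin of excitable cells, fell 4.00-fold and Cdk5r2, an activator of the kinase CDK5, 5.11-fold. Calls were lost on leaving out a single library for Cdk5r2 (control 3 or score 4 library 2 or 6), Rap1gap (control 2 or score 4 library 1) and Shc4 (any of 8 libraries). In a fit of the 11 libraries alone, Cdk5r2, E330009J07Rik, Jph4, Rap1gap and Shc4 were not called, and 3000002C10Rik, Jph4, Rap1gap and Shc4 were not called without score 4 libraries 1 and 3. Mmp14, a membrane-bound metalloproteinase, was at 354, 288, 351, 255 and 255 CPM and then at 84.4 to 175 CPM (median 157; log2 change -1.12 ± 0.31, adjusted p = 0.039). Its groups did not overlap, yet the call was lost on leaving out any of 7 single libraries or score 4 libraries 1 and 3. Dner, a Notch ligand chosen after its values were seen, fell 2.44-fold without overlap.

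Among genes that rose with no overlap, the 12 with the largest fitted change and a mean of at least 5 CPM were Cxcr6, Trbc2, AI662270, Gm4951, Ptprc, Il18r1, Il1r2, Lat, Rgs1, Il7r, Ccr2 and Gm12250, each at or under 3 counts in every control. Cxcr6, a chemokine receptor of tissue-homing T cells, was at 298, 98.2, 16.9, 14.9, 8.26 and 12.6 CPM in score 4 libraries 1 to 6, at least 77.2-fold higher than the controls. Trbc2, a T cell receptor constant region, was at 257, 67.4, 24.6, 12.1, 6.76 and 12.3 CPM, at least 65.4-fold higher. Lat, the adaptor of the T cell receptor, reached 111 CPM and Il7r, the IL-7 receptor, 112 CPM in library 1, without which Il7r was not called. Gm4951 and Gm12250 differed in pattern: library 1 held 14.5 and 8.63 CPM of them, beside group medians of 26.3 and 10.9 CPM.

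Of 14 T cell markers, 10 rose, and 5 of these (Cd3d, Cd3g, Trbc2, Ltb and Ptprc) were called without score 4 libraries 1 and 3. The list summed to 8.58, 3.41, 9.79, 0 and 3.44 CPM in controls and to 1410, 394, 141, 88.6, 74 and 62.3 CPM at score 4. Ptprc, which encodes CD45, an antigen the sort was meant to exclude, was at 0 CPM in the controls and at 147, 30.3, 16.9, 15.1, 17.7 and 4.93 CPM at score 4. Cd3e, a subunit of the T cell receptor complex, was at 34.7, 9.7, 1.84, 3.08, 3.76 and 2.78 CPM. T cell RNA was present in each of the 6 score 4 libraries and was highest in libraries 1 and 2. The call on Cd3e was lost without score 4 library 1 or any single control.

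Other cell types moved less. Of 13 infiltrating myeloid markers, 4 rose (3 without score 4 libraries 1 and 3), among them Ccr2, at 70.2 CPM in library 1 and 5.86 to 10.2 CPM in the others, and Lyz2, lysozyme, at 5.89 to 27.2 CPM, with 0 CPM of both in the controls. Of 14 microglia markers, Aif1 and Ctss rose, and neither was called without library 1 or without libraries 1 and 3, where 1 other marker, Sall1, was called lower. P2ry12, the defining microglial receptor, was at 3.79 to 14 CPM in controls and 8.21 to 19.7 CPM at score 4 (log2 change 0.28 ± 0.61). Of 10 oligodendrocyte markers, Mog, Mobp and Cldn11 rose and 0 were called without libraries 1 and 3, of which Mog and Mobp were lost without library 1 alone, with a list sum of 1150 to 1320 CPM in controls and 1050 to 2120 CPM at score 4.

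Of 8 endothelial markers 2 rose and of 6 B cell markers 1, and without score 4 library 1, or without libraries 1 and 3, these counts were 1 and 0. Meanwhile 0 of 6 oligodendrocyte precursor, 10 neuron, 8 mural and fibroblast and 5 ependymal markers were called by edgeR or by DESeq2 (1, 1, 0 and 0 at an unadjusted p under 0.05). The endothelial sum was 0 to 6.53 CPM in controls and 10.7 to 42 CPM at score 4, and the B cell sum 0 to 4.66 and 0 to 10.3 CPM. Neuron markers summed to 64.3 to 219 and 74.4 to 137 CPM, precursor markers to 7.83 to 43.7 and 11.7 to 68.1 CPM, mural markers to 128 to 200 and 77.9 to 289 CPM and ependymal markers to 16.2 to 51.2 and 12.5 to 72.3 CPM. The part of any of these cells in the changes above was not tested.

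Cell cycle genes also rose in part, 4 of 19 (Top2a, Cdk1, Birc5 and Ube2c) with 0 lower. Top2a, the topoisomerase of dividing cells, was at 3.27, 0, 0, 0 and 0 CPM in controls and at 117, 32.3, 11, 12.9, 7.89 and 10.8 CPM in score 4 libraries 1 to 6, highest in libraries 1 and 2 as was the T cell sum. All 4 were still called without libraries 1 and 3. That fit kept library 2, and 5 of 14 T cell markers were called in it as well, so it cannot set T cells apart. The part of T cells in the cell cycle genes was not tested.

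Score 4 was then set beside the other stages of the same sort, 6 libraries at score 1 and 4 of the chronic stage. Against score 1, 5 genes were called (0.0214%), 2 higher and 3 lower at score 4, while DESeq2 called 70 and 3698 genes had an unadjusted p under 0.05. The number was 9, 2, 3 and 8 without score 4 library 1, 2, 5 and 6. The 5, chosen after their values were seen, were the low-abundance transcripts Erich3 and Gm38056, which were higher, and Hebp2, Arc and Lrrc4c, which were lower. Lrrc4c, a synaptic adhesion protein, was at 5.87 to 28.7 CPM (median 7.52) at score 1 and at 0.308 to 5.33 CPM (median 1.6) at score 4. Of the 42 interferon-stimulated, 20 MHC class I and 16 complement genes, 0 were called between the stages by edgeR, while 5, 7 and 0 were higher at score 4 at an unadjusted p under 0.05.

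Levels at score 1 were compared gene by gene. Gfap was at 46.6 to 383 CPM (median 225) at score 1, with a log2 difference of -0.04 ± 0.32 for score 4 against score 1. Igtp was at 88.9 to 948 CPM (median 444) and Irf1 at 52.2 to 251 CPM (median 145), with log2 differences of 1.43 ± 0.50 and 0.95 ± 0.40, both with an adjusted p of 0.23. B2m was at 84.9 to 919 CPM (median 387), so that 1 or more libraries at score 1 lay within the control range of 71.5 to 130 CPM. The spread among libraries was wider at score 1 than at score 4 for Gfap and B2m.

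Against the chronic stage, 842 genes were called (3.61%), 213 higher (0.913%) and 629 lower (2.7%) at score 4. Of the interferon-stimulated genes 28 of 42 were higher at score 4 and 0 lower, and of the MHC class I genes 9 of 20 and 0. Igtp was at 6.34 to 61.6 CPM (median 30.1) in the chronic stage, and score 4 lay above it by a log2 difference of 5.30 ± 0.72 (adjusted p = 4.7e-07). Irf1 was at 13.2 to 50.9 CPM (log2 difference 3.20 ± 0.52, adjusted p = 2.2e-05) and Gfap at 35.6 to 89.8 CPM (1.90 ± 0.38, adjusted p = 0.00067). For each of the 3 genes every score 4 library lay above every chronic library.

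Serpina3n and H2-Aa did not differ in this way. Serpina3n was at 48.1 to 118 CPM (median 56.2) in the chronic stage, with a log2 difference of 0.09 ± 0.48, and H2-Aa at 4.97 to 15 CPM (median 8.8), with a log2 difference of 0.87 ± 0.83 (adjusted p = 0.64). C4b was at 47.7 to 123 CPM, lower than at score 4 (log2 difference 1.90 ± 0.41, adjusted p = 0.0017) yet above each control, none of which exceeded 14.5 CPM.

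Several leading genes among those that fell at score 4 were higher in chronic libraries. Igsf1 was at 16 to 350 CPM there (median 55.3), Slc6a11 at 748 to 4770 CPM (median 1390), Ncan at 18.7 to 158 CPM (median 33.7) and Fabp7 at 77 to 322 CPM (median 248). The log2 differences of score 4 from the chronic stage were -4.52 ± 0.55, -2.55 ± 0.38, -2.95 ± 0.39 and -2.12 ± 0.52, each with an adjusted p of 0.0078 or less. Mmp14 did not pass that test (log2 difference -0.62, adjusted p = 0.26). Chronic libraries also held more RNA of neuron markers (median sum 322 CPM beside 109 CPM at score 4) and precursor markers (107 beside 16.8 CPM), and less of the astrocyte core list (56200 beside 74200 CPM). The part of these in the 629 genes lower at score 4 was not tested.

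**Figure D4:**
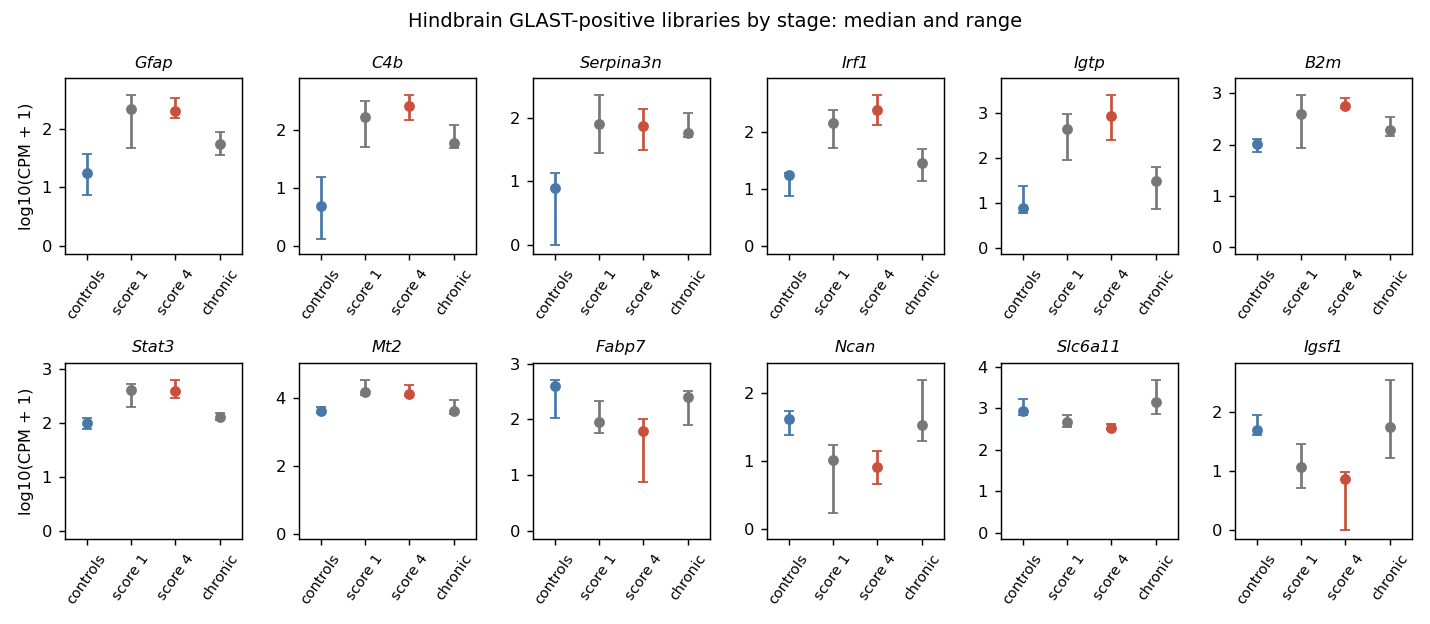
Level of 12 genes in hindbrain GLAST-positive libraries on a log10(CPM + 1) scale for controls (5 libraries), score 1 (6), score 4 (6) and the chronic stage (4); points are medians and bars span the lowest to the highest library. Gfap, Irf1 and Igtp stood high at score 1 and score 4 and lower in the chronic stage, while Ncan, Slc6a11 and Igsf1 showed the opposite order.

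The response was next set beside that of the hindbrain ACSA-2+ GLAST- sort, with 5 control and 6 score 4 libraries, which may come from the same animals: codes in the sample titles recur between the sorts and tie 7 GLAST+ libraries to 1 or 2 GLAST- libraries each. In that sort 165 genes (0.707%) rose and 5 (0.0214%) fell at score 4. The difference between the responses passed the test for 2 genes (0.00857%), while DESeq2 called 16 and 2091 had an unadjusted p under 0.05. It passed for 0 genes without control 2 or score 4 library 2, 4, 5 or 6, and for 1 without score 4 library 3. With libraries of a shared code as a block, 1 gene passed, which was neither of the 2, and 760 had an unadjusted p under 0.05. Sall3 was at 54.8 to 84.3 CPM in GLAST- controls and 47 to 107 CPM at score 4, so that the response in GLAST+ cells was lower by 4.58 ± 0.88 on the log2 scale (adjusted p = 0.025, and 0.62 with the block). Cdh13, an atypical cadherin, was at 1.23, 6.44, 1.31, 0 and 0 CPM in GLAST+ controls and 0 CPM at score 4, but at 0.46 to 8.07 and 2.67 to 15.1 CPM in the GLAST- sort (adjusted p = 0.025, and 0.89 with the block).

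Interferon-stimulated genes rose in both hindbrain sorts, 33 of 42 in GLAST+ and 34 of 42 in GLAST- cells, and MHC class I genes 15 of 20 in each. Igtp had log2 changes of 6.71 ± 0.70 and 6.63 ± 0.70, a difference of 0.08 ± 0.79. Gfap had 3.43 ± 0.38 and 2.96 ± 0.37, a difference of 0.47 ± 0.49. Serpina3n had 3.45 ± 0.53 and 4.89 ± 0.55, and the difference of -1.44 ± 0.70 did not pass the test (adjusted p = 0.52). Thbs2 had 3.42 ± 0.52 and 0.63 ± 0.40, a difference of 2.79 ± 0.65 that did not pass either (adjusted p = 0.14). T cell markers summed to a median of 115 CPM in GLAST+ and 66.1 CPM in GLAST- score 4 libraries.

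The lower genes also differed in size without passing the test. Slc6a11 in the GLAST- sort was at 5830 to 9110 CPM at score 4 (log2 change -0.43 ± 0.35), a difference between the responses of -1.19 ± 0.50 (adjusted p = 0.42). For Igsf1 the difference was -2.53 ± 0.69, for Sfrp5 -2.01 ± 0.63 and for Ncan -1.75 ± 0.50, each with an adjusted p of 0.31. Fabp7 had a log2 change of -1.83 ± 0.51 in the GLAST- sort (adjusted p = 0.072) and a difference of -0.85 ± 0.71.

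The spinal cord ACSA-2+ GLAST- sort responded differently for 2863 of 23324 genes (12.3%), 1980 (8.49%) with a higher and 883 (3.79%) with a lower response in hindbrain GLAST+ cells. Codes in the sample titles recur between these sorts as well, so their libraries may come from the same animals. No fit with shared codes as a block was run for this comparison, and its p-values treat the libraries as unrelated. The spinal cord score 4 libraries went against their sort, however: Atp1b2 was at 103 to 599 CPM in them beside 5170 to 7710 CPM in their controls, core astrocyte genes summed to a median of 5630 beside 44000 CPM, and oligodendrocyte markers to 48600 beside 17400 CPM. Of all genes tested in that sort, 6.8% rose and 11.1% fell at score 4, and of 20 core astrocyte genes 18 fell, while 0 of 20 fell in hindbrain GLAST+ cells (1 at an unadjusted p under 0.05). A difference in response therefore cannot be told apart here from a difference in the cells captured.

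With that limit, Gfap rose less in spinal cord libraries (1.10 ± 0.34) than in hindbrain GLAST+ libraries, by a difference of 2.32 ± 0.49 (adjusted p = 0.0003). Serpina3n (difference -3.00 ± 0.69, adjusted p = 0.0011), B2m (-2.23 ± 0.47, adjusted p = 0.00032) and H2-D1 (-2.17 ± 0.53, adjusted p = 0.0024) rose more in the spinal cord. Igtp rose in both, at 5.96 ± 0.68 in the spinal cord, and the difference of 0.75 ± 0.79 was not called. Of 42 interferon-stimulated genes, 39 were called higher in the spinal cord libraries.

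**Figure D5:**
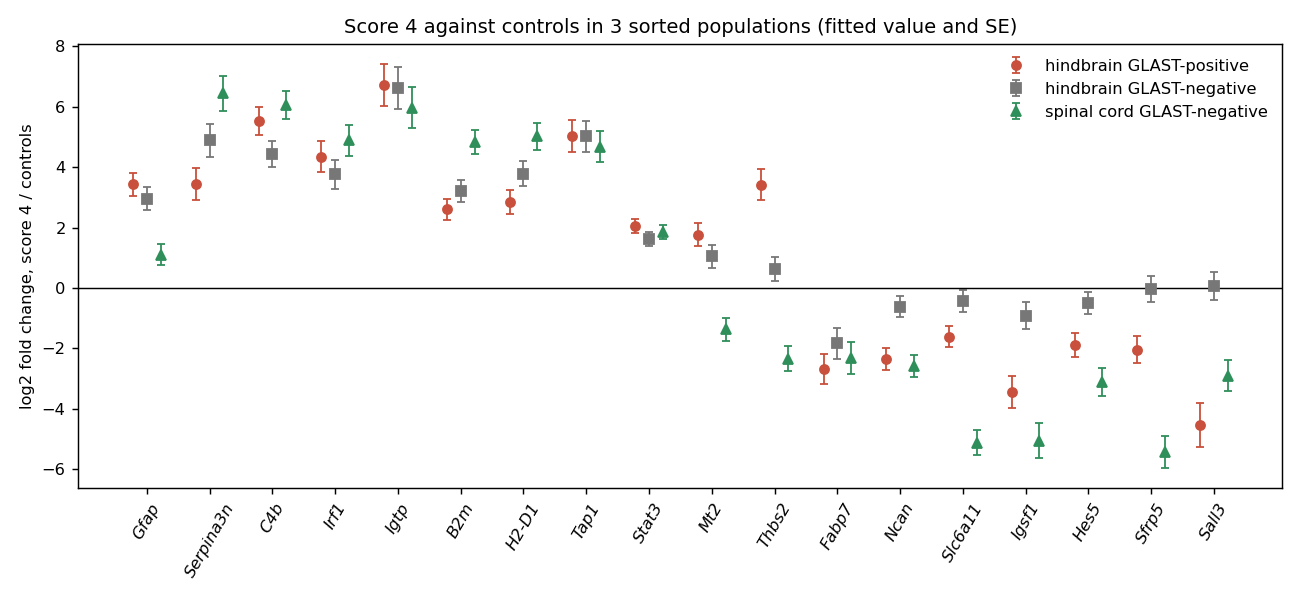
Fitted log2 fold change of score 4 against controls, with its standard error, for 18 genes in hindbrain GLAST-positive (red circles), hindbrain GLAST-negative (grey squares) and spinal cord GLAST-negative libraries (green triangles). Gfap, C4b, Irf1, Igtp, Tap1 and Stat3 lay above 0 in all 3, and Sall3 and Sfrp5 lay near 0 only in the hindbrain GLAST-negative sort.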

How the data were processed

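RNA of sorted cells was made into QuantSeq 3′ mRNA libraries by the authors and read as single 50-base reads. Per the submitters' processing notes, reads were handled with HISAT 0.1.5, SAMtools and HTSeq 0.6.1p1 on GRCm38, and per the methods counting used union mode; the strand setting is not stated. The authors deposited whole-number counts per gene, without normalization, for 66 EAE libraries and 48526 genes (0 columns without a sample). The table of the subtype experiment was not used here.

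Counts of 23324 genes with at least 10 counts in total were fitted with edgeR 4.0.16 in R 4.3.3 (TMM scaling, 12 group means over 66 libraries, quasi-likelihood tests, two-sided, Benjamini-Hochberg over all genes). CPM use TMM-scaled library sizes. Genes were called at an adjusted p under 0.05 and a log2 change beyond 1. Folds against a group at 3 or fewer counts per library are lower bounds against 3 counts, which cover counting error only. On simulated data for the score 4 and control groups (22837 genes), 99 of 100 genes changed by 3 on the log2 scale, 55 of 100 changed by 2 and 1 unchanged gene were called. The changed genes all lay well above the floor of detection, every gene had the same spread, and no library stood apart. These shares therefore do not describe genes near the floor, or groups with an outlying library. DESeq2 1.42.0 served as an alternative, with Python 3.11.15, pandas 2.3.3, NumPy 2.4.6, SciPy 1.17.1 and matplotlib 3.10.9 for the rest.

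Members, gene lists and alternatives were chosen with earlier results of these data known. Genes named were the 12 largest called changes per direction with at least 5 CPM and no overlap, up to 4 called members per list, fixed markers, genes whose response differed between sorts, and others said to be chosen after their values were seen. Genes nearest the fold threshold were computed but are not named, and some fixed markers are not reported here. Groups come from the sample titles. Libraries of the GLAST+ and GLAST- sorts may share animals: codes in the titles recur between them, but the labels do not say what a code is. A fit of the 2 hindbrain responses with shared codes as a block was added after seeing the data, and none was run for the spinal cord.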

Additional observations from a re-analysis of the deposited data

Results flagged for a closer look

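Each gene named and each list sum was checked, within the 5 controls and within the 6 score 4 libraries, for 1 library whose gap to its nearest neighbour took an unusual share of the group's range. For normally distributed values, chance would flag about 1 in 20 groups. CPM are often skewed or near the floor, and many of the genes checked vary together, so that rate does not hold here. Of 201 groups 32 were flagged, 18 of them on score 4 library 1.

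Library 1 was the highest for the leukocyte genes Ptprc (147 CPM, a gap of 0.821 of the range), Cd3e (34.7 CPM, 0.761), Trbc2 (257 CPM, 0.758), Cxcr6 (298 CPM, 0.69), Ccr2 (70.2 CPM, 0.933), Rgs1 (112 CPM, 0.757), Lat (111 CPM, 0.655), Il7r (112 CPM, 0.903), Il1r2 (124 CPM, 0.88) and AI662270 (181 CPM, 0.823). It was also the highest for Top2a (117 CPM, 0.776), Junb (73.9 CPM, 0.888), H2-DMa (17.3 CPM, 0.669), Cldn11 (124 CPM, 0.636) and Aif1 (33.6 CPM, 0.645), and for the T cell sum (1410 CPM, 0.754) and the precursor sum (68.1 CPM, 0.771). It was the lowest for Slc1a2 (2630 CPM, 0.724).

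Score 4 library 6 was the highest for Mt1 (13200 CPM, 0.645), Mt2 (23500 CPM, 0.756), Glul (4210 CPM, 0.665) and P2ry12 (19.7 CPM, 0.67), and library 2 the lowest for Aqp4 (515 CPM, 0.654). Among controls, library 3 was the lowest for Aqp4 (667 CPM, 0.719) and the highest for Gbp2 (13.4 CPM, 0.725), the class II sum (1.96 CPM, 0.807) and the endothelial sum (6.53 CPM, 0.767). Control 1 was the highest for Lgals9 (2.86 CPM) and Top2a (3.27 CPM), with the other 4 at 0 CPM (a gap of 1.0 of the range), control 2 for Cdh13 (6.44 CPM, 0.797), control 4 for Cebpd (31.2 CPM, 0.801) and control 5 for the interferon sum (778 CPM, 0.71).

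The response at score 4 differed from that of the hindbrain GLAST- sort for Sall3 (-4.58 on the log2 scale) and Cdh13 (-6.65), both with an adjusted p of 0.025 by edgeR, and 0.62 and 0.89 with shared title codes as a block. It differed from that of the spinal cord GLAST- sort for 31 named genes, beside 12.3% of all genes tested and with the loss of astrocyte RNA in those spinal cord libraries given above. In log2 units, the response in hindbrain GLAST+ cells was higher for the astrocyte genes Slc1a3 (2.65), Atp1b2 (4.13), Slc1a2 (3.17), Aldh1l1 (3.58), Aqp4 (3.22), Gja1 (4.9), Apoe (2.66), Mlc1 (4.21), Slc6a11 (3.51) and Etnppl (4.97). It was also higher for Gfap (2.32), Tnfrsf1a (2.1), Il17ra (2.47), Mt1 (2.24), Mt2 (3.14), Thbs2 (5.76), Mmp14 (2.16), Sfrp5 (3.38), Slc7a5 (4.46), Cxcr6 (8.37), Lat (8.32) and Gm38056 (3.89). It was lower for Vim (-2.2), Serpina3n (-3.0), B2m (-2.23), H2-D1 (-2.17), Cdh13 (-6.2), Ctss (-2.89), E330009J07Rik (-1.93), Rap1gap (-2.48) and Shc4 (-3.02). A higher response can be a smaller fall: Slc6a11, Sfrp5 and Mmp14 fell in hindbrain GLAST+ cells.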

How the results depend on the processing

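The count of genes that rose, 388, was 256 in a fit of hindbrain GLAST+ libraries only, 196 in a test against a log2 change of 1 (glmTreat), and 228 without score 4 libraries 1 and 3, an alternative chosen after seeing the data. Over fits that each left out 1 library it ranged from 242 to 416. The count of genes that fell, 86, was 134 by DESeq2, 23 with the 11 libraries alone, 29 in hindbrain GLAST+ libraries only, 18 by glmTreat and 54 to 73 with 1 library left out. The cause was not tested, apart from fewer samples or a stricter test by construction. Genes whose response differed from hindbrain GLAST- cells numbered 2, 16 by DESeq2, 1 with shared title codes as a block (correlations of deviations -0.0383 to 0.106) and 0 to 3 with 1 library left out. Those that differed from the spinal cord numbered 2863, and 2552 to 2951 with 1 library left out. Score 4 against score 1 gave 5 genes, 70 by DESeq2 and 2 to 9 with 1 library left out, and score 4 against the chronic stage 842 and 660 to 868.

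Same-numbered control and score 4 libraries did not deviate together (correlations of deviations -0.0358 to 0.0537, median -0.0119). Libraries of a shared title code gave values of -0.0383 to 0.106, so this measure cannot show whether libraries are related. With the replicate number as a block, 377 genes rose and 70 fell, and 2 named genes lost their call. Of 82 called genes checked one by one, 56 kept the call in every alternative that tested them, 20 lost it when some single library was left out, and 0 reversed. DESeq2 lost 0 of the 82. At 2423406 to 4123798 counts a library, a gene at 3 or fewer counts cannot be told from an absent one.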

Other observations

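Some genes outside the lists, chosen after their values were seen, separated the groups completely. Ifitm3, an interferon-induced membrane protein that blocks viral entry, was at 11.4, 6.44, 10.4, 10.4 and 5.89 CPM in controls and at 123 to 412 CPM (median 231) at score 4, a 27.7-fold rise (log2 change 4.79 ± 0.67, adjusted p = 5.6e-07 by edgeR). Atf5, a transcription factor of the mitochondrial and amino acid stress responses, went from 135, 174, 121, 102 and 164 CPM to 257 to 622 CPM (median 445), a 3.15-fold rise (log2 change 1.65 ± 0.25, adjusted p = 4e-06). Nup62 and Il4i1 overlap Atf5 on the opposite strand, so its reads cannot be fully told apart from theirs.

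Etnppl, an astrocyte enzyme that breaks down phosphoethanolamine, was at 394, 392, 432, 545 and 580 CPM in controls and at 946 to 1560 CPM (median 1080) at score 4, a 2.49-fold rise (log2 change 1.32 ± 0.29, adjusted p = 0.0034). In hindbrain GLAST- cells it was at 321 to 456 CPM in controls and at 552 to 799 CPM at score 4 (log2 change 0.80 ± 0.29, adjusted p = 0.38), and the difference between the responses did not pass the test (0.52 ± 0.40, adjusted p = 0.89). Slc7a5, a transporter of large neutral amino acids, was at 117, 146, 112, 91.4 and 74.9 CPM in controls and at 153 to 560 CPM (median 244) at score 4, a 2.62-fold rise (log2 change 1.39 ± 0.33, adjusted p = 0.007) that was not called without score 4 library 5. In hindbrain GLAST- cells it was at 107 to 265 and 104 to 273 CPM.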
